A study of Mus musculus with 15 samples.

Results

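Astrocytes of the mouse striatum are described here as the cells that the authors' deposited annotation places in the class astrocyte. The rule took every cell with that class name from the deposited table, with no filter on its measured values, and found 1620 of 5581 cells (29.0%). The class held 23.2% of all unique molecular identifiers (UMIs), the tags by which each captured RNA molecule is counted once. Dissociated striatum of 15 mice was profiled by single-cell RNA sequencing. The mice were C57BL/6J males (a common inbred strain) bought at 8 weeks of age and habituated for about 1 week. Each group had 5 mice: haloperidol from implanted pellets, olanzapine in food, and placebo, all for 28 to 29 days. Both drugs are antipsychotics that block dopamine D2 receptors, and olanzapine also binds several serotonin, histamine and muscarinic receptors. The labels do not describe how placebo was given, so drug and route cannot be told apart in either comparison with placebo. The labels number the mice 1 to 15 across the groups. A mouse is also a library: its cells, 500 loaded, had a separate well of the 10x Genomics droplet system (3' kit, version 2).

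Astrocytes take up glutamate and GABA released by neurons, buffer potassium, move water at the blood vessels, pass glucose products to neurons and store glycogen. They form a coupled network through connexin gap junctions and secrete apolipoprotein E, the main lipid carrier of the brain. In the striatum they are mostly protoplasmic, with little of the intermediate filament protein GFAP until injury, when reactive astrocytes raise it. Astrocyte levels below are in CPM, the UMIs of a gene scaled to the same total in each set of summed cells, over the astrocytes of 1 mouse or of all mice together. Since 1 end per molecule was counted, CPM needs no scaling by transcript length.

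The number of astrocytes per mouse ran from 15 in olanzapine 1 and 16 in olanzapine 2 to 344 in olanzapine 3. Their summed depth ran from 31131 UMIs in olanzapine 1 to 1060275 in olanzapine 3, so that a gene level there rests on very different numbers of molecules. An astrocyte held a median of 2221 UMIs (713 to 24442) and 953 genes. The 4 mice numbered 1 to 4 in the labels, haloperidol 1 and 2 and olanzapine 1 and 2, had 80 to 128 cells each and 15 to 32 astrocytes, and no placebo mouse has a number under 5.

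Some libraries had many cell barcodes in common, and the cause was not tested. Placebo 5 shared 110 cell barcodes with placebo 3 and 101 with placebo 2, against at most 2 for any other pair of mice, and 210 of these 211 barcodes carried the same class in both mice. The cell in placebo 5 held a median of 0.308 times the UMIs of its counterpart in placebo 3, and 0.328 times those of its counterpart in placebo 2. Across genes the same barcode correlated at a median r of 0.654 and 0.670. The counterpart was also set against a number of other cells of the class in placebo 5. Its mean r with them had a median of 0.395 and 0.412. No pair was identical. Of the 131 astrocytes of placebo 5, 37 were affected, 20 with placebo 3 and 17 with placebo 2, and 94 were left without them. These 37 held 58052 of the 298631 astrocyte UMIs of placebo 5. All mice were kept as deposited, and every comparison with placebo was repeated without these 37 cells and without placebo 5. Where cells of other classes entered, as in the share of astrocytes, all 210 cells of placebo 5 with a shared barcode and the same class were left out.

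**Figure D1:**
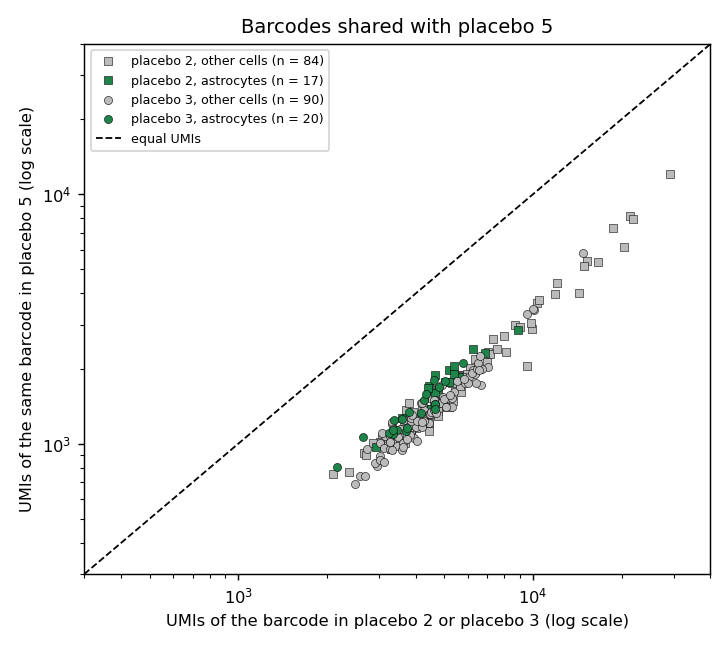
UMIs of each cell barcode found both in placebo 5 (y axis, log scale) and in placebo 2 or placebo 3 (x axis, log scale), with astrocytes in green, other cells in grey and the dashed line marking equal UMIs. All 211 points lie below the line, and the 37 astrocyte pairs have between 0.294 and 0.406 times as many UMIs in placebo 5.

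The 6 marker genes of the class were high in every mouse, and together made up 13770 CPM of astrocyte RNA against 272 CPM of the RNA of all other cells. The classes come from clustering of these same cells, so these ratios describe the class and no test was made. Aldoc, which encodes the glycolytic enzyme aldolase C, stood at a median of 4394 CPM over mice (1638 to 5337). Htra1, a secreted serine protease, was at 3256 CPM (1948 to 4817), and Ntsr2, a neurotensin receptor, at 2310 CPM (1674 to 2891). Gja1, the gap junction protein connexin 43, had 1925 CPM (1477 to 2599). F3, tissue factor, had 1711 CPM (1152 to 2340), and Slc7a10, a transporter of serine and glycine, 708 CPM (376 to 964). Each marker was higher in astrocytes than in the other cells of the same mouse in 15 of 15 mice. The class labelled oligodendrocyte was next highest for Aldoc (270 CPM), Htra1 (367 CPM), F3 (174 CPM), Ntsr2 (91.6 CPM) and Slc7a10 (82.9 CPM), but not for Gja1, which was next highest in the class named other (74.4 CPM). That oligodendrocyte class carried precursor genes, with Pdgfra at 898 CPM and Mog at 16.1 CPM, whereas the class labelled olig precursor had Pdgfra at 0.713 CPM and Mog at 2510 CPM. After each cell was thinned to 1000 UMIs, which left out 108 astrocytes, a UMI of Aldoc was seen in 83.7% of astrocytes (91.5% unthinned) and in 22.1% of that class (46.5% unthinned, median depth 3148 UMIs), against 3.21% of microglia.

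**Figure D2:**
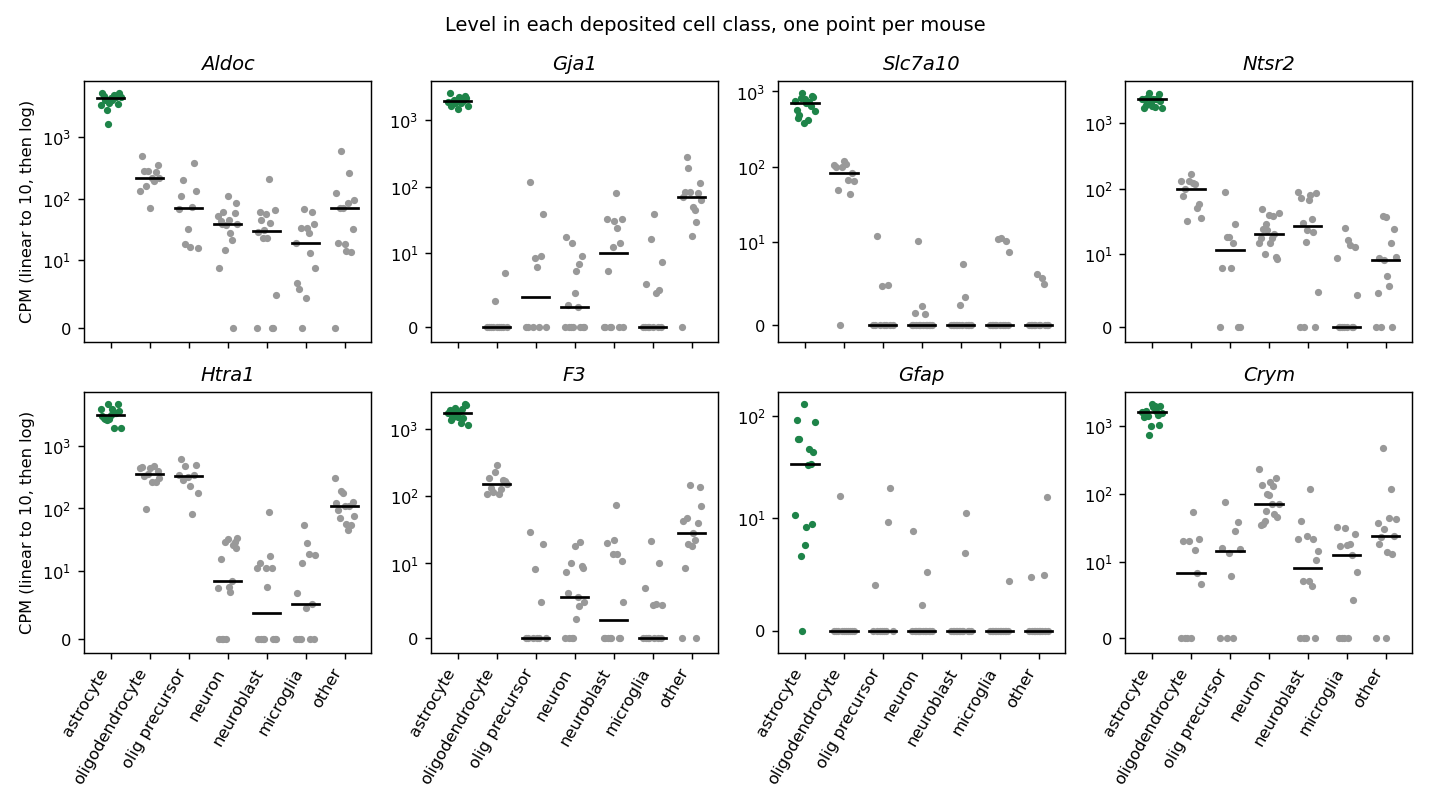
CPM (linear up to 10, logarithmic above) of the 6 astrocyte markers, Gfap and Crym in each deposited cell class, with 1 point for each mouse that had at least 10 cells of the class and a bar at the median. The 6 markers and Crym are highest in astrocytes in all 15 mice, whereas Gfap is low there too, at a median of 33.7 CPM.

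Among genes at 100 CPM or more in astrocytes, the largest worst-mouse ratio to the other cells belonged to Mlc1, a membrane protein of the perivascular endfeet, which was at least 60.9 times higher in astrocytes in every mouse. Gja1 followed at 60.4 times, Cldn10, a claudin, at 53.2 times, and Ntsr2 at 50.9 times. The remaining genes of the first 15 were Btbd17, the growth factor receptor Fgfr3, the water channel Aqp4, Aldoc, the acyl-CoA synthetase Acsbg1, F3, Slc7a10, the glutamate transporter Slc1a2, the lipid phosphatase Plpp3, the connexin Gjb6 and the proline dehydrogenase Prodh, which stood at 22.4 times in its lowest mouse.

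The lipid transport genes summed to 44306 CPM in astrocytes against 5202 CPM in the other cells. Apoe alone took 34473 CPM, with 23872 CPM in the lowest mouse (haloperidol 5) and 50729 CPM in the highest (olanzapine 2), against 1877 CPM in the other cells. Clu, another apolipoprotein, followed at 6663 CPM. Of the 17 genes of glutamate and GABA uptake, the highest were Slc1a2 (3971 CPM), the glutamine synthetase gene Glul (3047 CPM) and the glutamate transporter Slc1a3 (2584 CPM). The list summed to 11469 CPM against 1560 CPM in the other cells, and was higher in astrocytes in 15 of 15 mice. Among potassium, water and junction genes, Gja1, the sodium pump subunit Atp1b2 (978 CPM) and the potassium channel Kcnk1 (978 CPM) were among the 4 highest. The metallothioneins Mt1 (9696 CPM), Mt3 (5706 CPM) and Mt2 (3336 CPM), which bind zinc and copper, and the peroxiredoxin Prdx6 (2891 CPM) led the redox genes. Receptors besides Ntsr2 were headed by the lipid receptor S1pr1 (800 CPM), Fgfr3 (418 CPM) and the AMPA receptor subunit Gria2 (410 CPM). The last was higher in neurons (1507 CPM), and of 31 receptor genes 3 had no UMI in any astrocyte.

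Among regional genes, Crym, which encodes the thyroid hormone-binding protein mu-crystallin and is known to mark striatal astrocytes, was at 1771 CPM against 46.7 CPM in the other cells. Its lowest mouse was olanzapine 1 (739 CPM) and its highest olanzapine 3 (2120 CPM). The forebrain transcription factor Lhx2 was at 113 CPM. Agt, the angiotensinogen gene, known to be high in astrocytes outside the telencephalon, was at 64.6 CPM.

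Genes of reactive astrocytes were low in this class. Gfap had 34.8 CPM, and a Gfap UMI was seen in 4.63% of astrocytes (2.18% after thinning to 1000 UMIs), against 0.112% to 1.12% of cells in the other 6 classes. The median depth of an astrocyte (2221 UMIs) was below that of every one of those classes. Of 13 genes that rise in reactive astrocytes of any kind, 4 (Cp, Lcn2, Steap4 and Timp1) had no UMI in any astrocyte, and 2, Gfap and Vim, were high enough to be tested. The 13 genes summed to 90.1 CPM in astrocytes and 396 CPM in the other cells. Genes tied to neurotoxic reactive astrocytes summed to 88.9 CPM against 631 CPM.

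Receptors that bind the drugs were mostly low. Of 24 such receptor genes in the table, among them those for dopamine, serotonin, histamine, muscarinic and adrenergic ligands, 10 had no UMI in 4362471 astrocyte UMIs. Drd2, the D2 receptor, was at 0.688 CPM in astrocytes and 123 CPM in neurons, and Drd1 at 0.917 CPM and 194 CPM. The histamine receptor Hrh1 stood at 20.6 CPM and the alpha-1 adrenergic receptor Adra1a at 12.4 CPM. The 24 genes summed to 116 CPM against 313 CPM in the other cells, and were lower in astrocytes in 15 of 15 mice.

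Immediate early genes, which many cells switch on within minutes of stimulation or dissociation, summed to 1287 CPM in astrocytes and 7288 CPM in the other cells. Cytosolic ribosomal protein genes summed to 30300 CPM against 96706 CPM. The mitochondrially encoded genes went the other way, with 41952 CPM in astrocytes against 31360 CPM in the other cells, and were higher in astrocytes in 14 of 15 mice. Most markers of other classes were low in the astrocyte sums. The 10 microglial markers summed to 195 CPM (13698 CPM in the other cells), the 10 myelin markers to 318 CPM (8104 CPM), the 10 neuronal markers to 207 CPM (3373 CPM) and the 3 macrophage markers in the table to 0. Endothelial markers summed to 1190 CPM (4009 CPM), and ependymal markers to 354 CPM (62.5 CPM), from 41.1 CPM in haloperidol 2 to 1814 CPM in olanzapine 2. The last value comes from 16 astrocytes, so very few cells can set it. Of 1620 astrocytes, 76 carried at least 2 markers of 1 other class at 2 or more UMIs each, most often of projection neurons (24 cells) or ependyma (18 cells).

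Mice differed most in a few genes. Over genes at 100 CPM or more, the largest biological coefficient of variation, the spread between mice beyond counting noise, was 0.81 for the imprinted gene Nnat. Its level was 2721 CPM in olanzapine 2 and 128 to 931 CPM in the other mice. Olanzapine 2 had 16 astrocytes with 45201 UMIs, of which 14 with 33321 UMIs lay outside sub-cluster 4. A level there can thus rest on very few cells, and how many carried Nnat was not tested. Gm42418 (0.75), Oaf (0.71), the heat shock gene Hsp90aa1 (0.70) and Pcp4 (0.68), a calmodulin regulator that was far higher in neurons (6201 CPM), came next. Junb, Ptms, Ybx1, Rarres2 and Id4 completed the 10. The 10 genes with the lowest coefficient, from Mrpl55 (0.151) to Commd3 (0.163), all lay between 101 and 130 CPM. The coefficient was estimated within drug groups and drawn toward the trend over genes, so it cannot show that these 10 genes vary least.

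Hemoglobin RNA stood apart in 1 library. The hemoglobin genes summed to 9747 CPM in the astrocytes of olanzapine 3 and to between 0 and 94.2 CPM in the other 14 mice. A single cell of olanzapine 3 held 10179 of these UMIs, 87.3% of its 11664 UMIs, together with 12 UMIs of the 6 astrocyte markers (median astrocyte 31). Without that cell the level was 149 CPM. At least 1 hemoglobin UMI was present in 129 of 344 astrocytes of olanzapine 3, 19 of 95 of placebo 3 and 23 of 122 of placebo 4, and in none of 9 mice.

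Clustering the astrocytes alone gave 5 sub-clusters, numbered by size. None was renamed as a cell type, and their leading genes describe the clustering and were not tested. Sub-cluster 1 (667 cells, median 1695 UMIs) had the most mitochondrial RNA (median 5.66% of UMIs) and high Htra1 (5139 CPM) and Gja1 (2506 CPM), but Aldoc at only 1570 CPM. Its first 4 genes by ratio were the hemoglobins Hba-a1, Hba-a2, Hbb-bs and Hbb-bt, which rested on the single cell above. Without that cell the highest ratios included those of Ptgds (111 CPM, 2.93 times the other astrocytes), Gm11713, Ttyh2 and Gm26699. Sub-cluster 2 (550 cells) held the deepest cells (median 3831 UMIs), and its leading genes, Hlf, Mrpl15, Rgcc, Gapdh and Fam181b, were 1.98 to 2.06 times higher than in other astrocytes. Sub-cluster 3 (180 cells, median 1207.5 UMIs) was led by Rpa3, Rida, Cops9, Pink1 and Acyp2 and had the most Aldoc (10528 CPM). It was also the highest in metallothionein and redox genes (66541 CPM), ribosomal protein genes (66780 CPM) and nuclear genes of oxidative phosphorylation (61337 CPM), which in sub-cluster 1 summed to 12007, 12452 and 13180 CPM. High ribosomal protein genes were not particular to sub-cluster 3, since sub-cluster 4 was close to it at 63845 CPM. Malat1 was at 9441 CPM in sub-cluster 3, at 227367 CPM in sub-cluster 1 and at 88561 CPM or more in the rest. All CPM share 1 total, and the part of Malat1 in these sums was not tested. Sub-cluster 5 (107 cells) was led by Spry2, an inhibitor of growth factor signalling (702 CPM, 8.90 times), Ogdhl, the clock repressor Bhlhe41, Slc39a1 and the receptor Notch2 (382 CPM, 4.86 times).

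Sub-cluster 4 (116 cells) was mixed. Its leading genes Tmem212 (475 CPM), Ccdc153 (540 CPM), 1500015O10Rik, Dynlrb2 and Fam183b are genes of ciliated ependymal cells, which line the ventricle beside the striatum, and Foxj1, the regulator of motile cilia, was at 190 CPM there and at 0 to 1.84 CPM in the other sub-clusters. Yet at least 2 UMIs of 9 ependymal markers were found in 21 of its cells, and 82 had none. It also had the most Gfap (196 CPM), Vim (252 CPM), Thbs4 (119 CPM) and Top2a (107 CPM). Top2a is a gene of dividing cells. The 6 astrocyte markers summed to 7212 CPM in sub-cluster 4 and to 13420 CPM or more in each of the other 4.

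**Figure D3:**
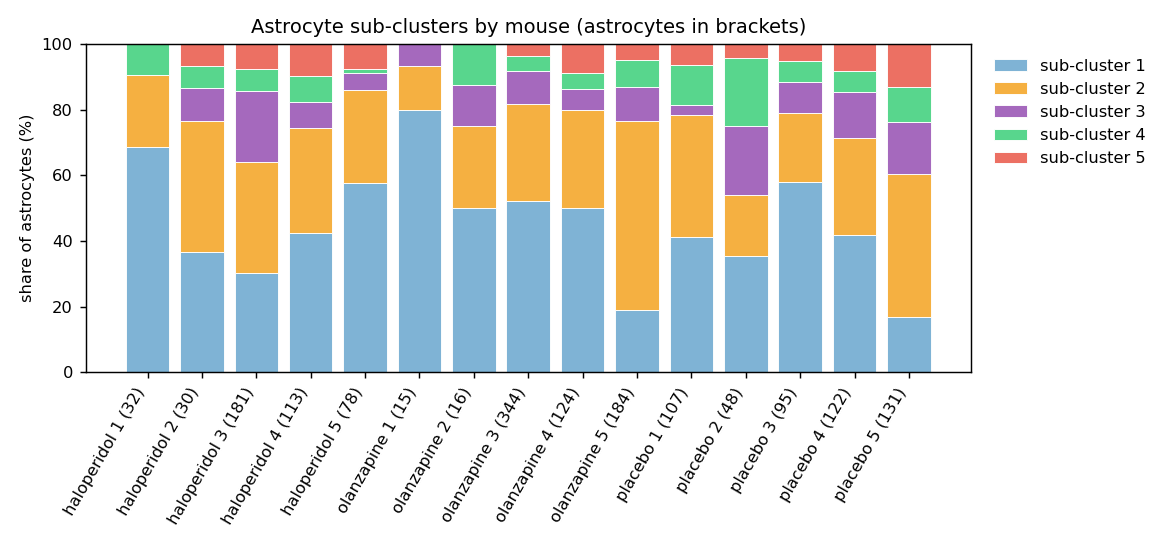
Share of the astrocytes of each mouse (%) that fell in each of the 5 sub-clusters, with the number of astrocytes in brackets. Among mice with at least 20 astrocytes, sub-cluster 1 takes 16.8% in placebo 5 and 68.8% in haloperidol 1, and mice of all groups differ widely.

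No sub-cluster share passed the test between groups. In the 13 mice with at least 20 astrocytes, sub-cluster 1 made up 38.6% ± 14.8 (SD, n = 5) of placebo astrocytes, 47.2% ± 15.7 (n = 5) of haloperidol astrocytes and 40.4% ± 18.6 (n = 3) of olanzapine astrocytes. The smallest raw p was that of sub-cluster 4, with 6.38% ± 3.07 with haloperidol and 11.3% ± 5.90 with placebo (n = 5 each, exact two-sided permutation p = 0.151, adjusted over 15 comparisons p = 0.957). It was 0.119 (adjusted p = 0.828) at its smallest when the 37 shared-barcode cells were left out. Olanzapine 1 and olanzapine 2 had too few astrocytes to enter.

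The share of astrocytes among all cells was 25.4, 32.3, 28.7, 27.9 and 34.5% in haloperidol 1 to 5, and 23.7, 28.9, 34.9, 35.5 and 25.5% in placebo 1 to 5. It was 18.8, 12.5, 28.9, 33.1 and 31.6% in olanzapine 1 to 5. The ranges overlapped, and the 2 lowest shares were those of the olanzapine mice with under 20 astrocytes. Haloperidol (29.8% ± 3.62) differed from placebo (29.7% ± 5.35) by 0.0562 percentage points (exact permutation p = 0.992, adjusted p = 0.992). Olanzapine (24.97% ± 8.94) differed from placebo by -4.73 points (exact permutation p = 0.349, adjusted p = 0.524), and by 1.50 points without the 4 mice numbered 1 to 4. With the shared-barcode cells left out, the difference from placebo was -1.03 points for haloperidol and -5.82 points for olanzapine. Cells lost in dissociation cannot be told apart from fewer cells in the tissue. The smallest p that 5 against 5 mice allow is 0.00794.

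Depth and RNA quality of astrocytes were also compared, since they bear on every gene level. The median UMIs per astrocyte averaged 2234.5 ± 480 in placebo mice, 2225 ± 522 in haloperidol mice and 2300.1 ± 216 in olanzapine mice (SD, n = 5 each, adjusted exact permutation p = 0.944 for each pair). The mitochondrial share was 3.61% ± 0.606, 4.21% ± 0.994 and 4.84% ± 1.59 in the same order. The difference of olanzapine from placebo had an exact permutation p of 0.0873 (adjusted p = 0.262). It was 1.24 points, and 0.538 points without olanzapine 1, which stood at 7.64%, and 0.418 points without the 4 mice numbered 1 to 4. The difference of haloperidol from placebo was 0.605 points, 0.278 points without the shared-barcode cells and 0.279 points without haloperidol 5.

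Expression in astrocytes after haloperidol was compared with placebo over 4554 genes that passed the filter on low counts. No gene passed the test (edgeR's quasi-likelihood test on counts summed per mouse, Benjamini-Hochberg adjusted p under 0.05, 0% of genes), nor with DESeq2. At an unadjusted p under 0.05 there were 177 genes with edgeR (3.89%), 96 higher and 81 lower, and 103 with DESeq2. The values below therefore describe genes with the smallest p and do not call a change. Groups without overlap are likely among genes picked by their p. How many of all 4554 genes had groups without overlap was not counted, here or in the comparisons that follow. The standard error (SE) of a log2 fold change was worked out as its absolute value over the square root of edgeR's F statistic. It is not a direct output of the test, and its median was 0.30.

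Ddx6, an RNA helicase of processing bodies (chromosome 9, 44604892 to 44640731, mm10), had the smallest p. Its level was 53.1, 51.4, 77.4, 73.0 and 59.6 CPM in haloperidol 1 to 5 and 29.5, 27.0, 9.42, 35.7 and 33.5 CPM in placebo 1 to 5. All haloperidol mice lay above all placebo mice and above all olanzapine mice, which reached 42.4 CPM. The astrocytes of haloperidol 1 and 2 summed to 94084 and 97350 UMIs, so these levels rest on few molecules. The log2 fold change of Ddx6 was 1.22 ± 0.32 (SE, edgeR adjusted p = 0.970). Rab33b, a Golgi GTPase (1.30 ± 0.36), and Ptp4a2, a phosphatase (1.15 ± 0.33), were also higher in every haloperidol mouse than in every placebo mouse. Uqcrc1, a core subunit of respiratory complex III (chromosome 9, 108936633 to 108949623), ran the other way. It had 170, 185, 235, 240 and 192 CPM with haloperidol and 413, 243, 268, 387 and 348 CPM with placebo, with the groups just apart. Its log2 fold change was -0.70 ± 0.22. Sec11a, a signal peptidase subunit (-0.89 ± 0.26), showed no overlap either. The other genes of the first 10 were Ntmt1 (-1.41 ± 0.39), the antizyme inhibitor Azin1 (1.03 ± 0.32), the kinase Hipk1 (1.38 ± 0.43), the homeobox factor Six3 (0.93 ± 0.30) and Zfp672 (1.27 ± 0.40), whose groups overlapped. Without the shared-barcode cells Ddx6 stood at 1.20 and Uqcrc1 at -0.69, and no gene passed.

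Olanzapine against placebo gave no called gene either (0% of 4554 genes with edgeR or DESeq2), with 135 genes (2.96%) at an unadjusted p under 0.05 by edgeR, 74 higher and 61 lower, and 57 by DESeq2. Of the 10 genes with the smallest p, 8 were lower. Fabp7, the brain fatty acid-binding protein (chromosome 10, 57784881 to 57788450), had 64.2, 44.2, 149, 177 and 114 CPM in olanzapine 1 to 5 and 189, 196, 315, 223 and 258 CPM in placebo 1 to 5. The haloperidol mice had 117, 123, 170, 146 and 159 CPM. Every drug-treated mouse lay below every placebo mouse. The log2 fold change of Fabp7 was -0.81 ± 0.23 with olanzapine and -0.69 ± 0.24 with haloperidol. Among classes it was highest in the class labelled oligodendrocyte (806 CPM). Both comparisons used the same placebo mice. Without placebo 5 the values were -0.78 and -0.66, and without its shared-barcode cells -0.78 and -0.67.

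Mut, the mitochondrial enzyme methylmalonyl-CoA mutase, had 0, 44.2, 27.4, 27.5 and 33.2 CPM with olanzapine and 53.1, 54.0, 47.1, 65.5 and 67.0 CPM with placebo, also without overlap (-0.98 ± 0.30). A single UMI is worth 32.1 CPM in olanzapine 1, so its 0 is a shallow value. Rps27rt had the smallest p (-1.27 ± 0.35). It is a retrogene copy of the ribosomal protein gene Rps27, so its reads may be shared with that gene and its level is uncertain, and it was highest in placebo 5 at 124 CPM. Without placebo 5 its log2 fold change was -0.83. The remaining genes were the outer mitochondrial membrane protein Tspo (-1.12 ± 0.32), Ccdc107 (-0.82 ± 0.25), 9530068E07Rik (-0.97 ± 0.31, no overlap), the volume-regulated anion channel subunit Lrrc8a (-0.83 ± 0.27), C1galt1c1 (-0.96 ± 0.32) and, higher with olanzapine, Gpatch8 (0.77 ± 0.25, no overlap) and Fam184b (1.08 ± 0.36).

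**Figure D4:**
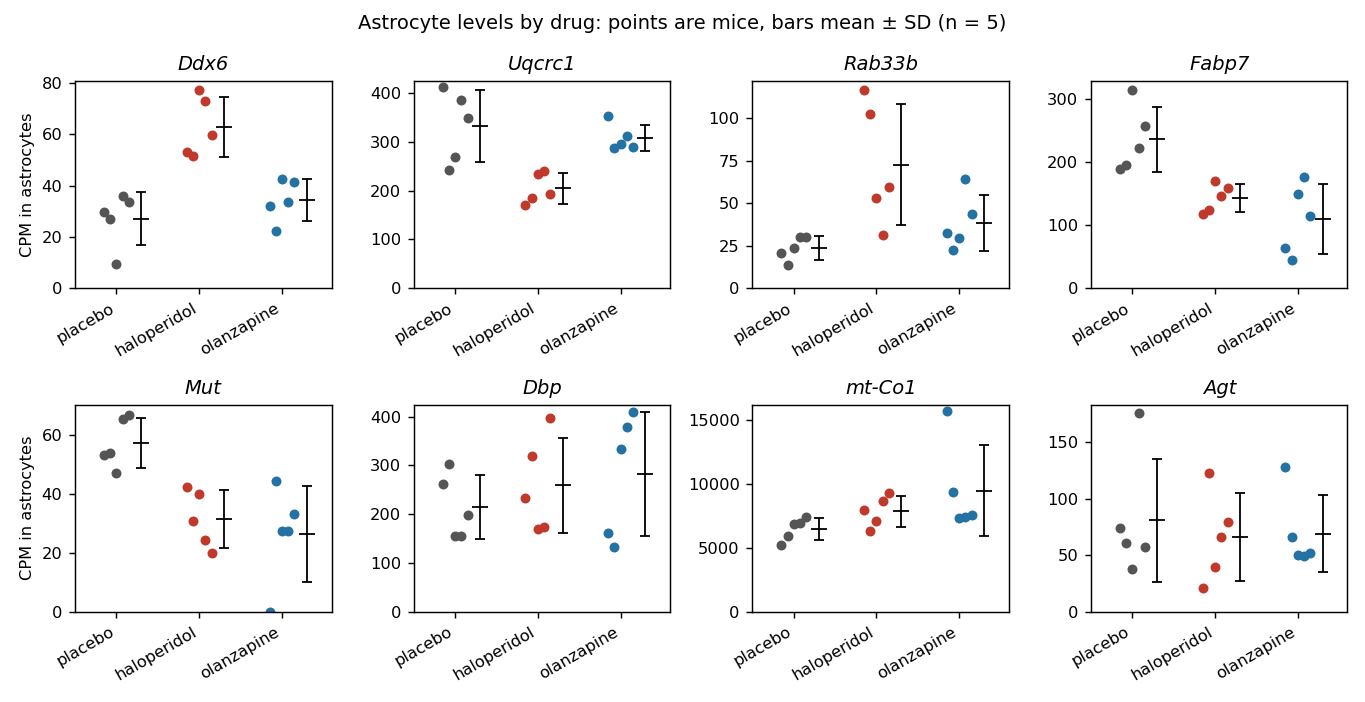
CPM in astrocytes of 8 genes by drug, with 1 point per mouse and the mean ± SD of each group (n = 5). Ddx6 and Rab33b lie higher and Uqcrc1 lower with haloperidol than in every placebo mouse, Fabp7 and Mut lie lower with both drugs, and Dbp, mt-Co1 and Agt overlap between groups. None passed the adjusted test.

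Between the drugs, 0 of 4554 genes passed (edgeR and DESeq2), and 144 (3.16%) were at an unadjusted p under 0.05 with edgeR and 67 with DESeq2. Zfc3h1, which takes part in nuclear RNA decay, was at 63.8, 30.8, 37.6, 41.7 and 59.6 CPM with haloperidol and at 0, 0, 19.8, 15.3 and 14.5 CPM with olanzapine. The groups did not overlap, and both 0 values came from the shallow libraries (log2 fold change 1.37 ± 0.39). Ptp4a2 (0.93 ± 0.31), 5031439G07Rik (1.09 ± 0.32) and Leprotl1 (0.96 ± 0.33) were also higher in all haloperidol mice. Lrrc8a (0.96 ± 0.27), Klf13 (1.34 ± 0.41), the collagen-modifying P3h3 (1.09 ± 0.35), E130102H24Rik (1.23 ± 0.41) and Gm15417 (0.98 ± 0.33) were higher on average with overlap, and the matrix protein gene Cyr61 (-0.85 ± 0.27) was lower. From the function lists, Uqcrc1 (-0.55 ± 0.23) and the lipid regulator Srebf1 (-0.61 ± 0.27) were lower with haloperidol on average, Uqcrc1 without overlap.

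The mean of both drugs against placebo, which uses 10 treated mice, called 0 of 4554 genes as well (159 genes or 3.49% at an unadjusted p under 0.05 with edgeR, 86 with DESeq2). Rps27rt (-1.19 ± 0.30, adjusted p = 0.769), Fabp7 (-0.75 ± 0.20, adjusted p = 0.769) and Mut (-0.93 ± 0.26) led. Nipbl, which loads cohesin (0.80 ± 0.24), and Rab33b (1.02 ± 0.32) were higher. Paip2b (-1.11 ± 0.34), Slc7a6os (-1.08 ± 0.33), the lipase inhibitor Angptl4 (-0.97 ± 0.31), Ccdc107 (-0.66 ± 0.21) and 2410002F23Rik (-0.94 ± 0.31) were lower.

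No circadian clock gene passed with either drug, and most had positive fold changes. Clock and Arntl proteins activate transcription from E-box sequences, the Per, Cry and Nr1d proteins repress it, and Dbp, Tef and Hlf act through D-box sequences. Of 20 deposited clock genes, 12 were tested. With haloperidol all 12 had a positive log2 fold change (median 0.26, against -0.01 over all genes), and 0 of the 12 had an unadjusted p under 0.05 (3.89% of all genes). With olanzapine 10 were positive (median 0.27, against -0.02), and 2 of the 12 had an unadjusted p under 0.05 (2.96% of all genes). The olanzapine median was 0.07 without olanzapine 4, and 0.18 over 11 tested genes without the shared-barcode cells. Dbp had 161, 133, 334, 379 and 409 CPM with olanzapine and 263, 304, 155, 155 and 198 CPM with placebo. Olanzapine 3 to 5 lay above every placebo mouse, while olanzapine 1 and 2, the shallow libraries, lay near or below the lowest placebo mice, so the groups overlapped (log2 fold change 0.60 ± 0.26). Hlf (0.60 ± 0.26), Rora (0.51 ± 0.25) and Tef (0.34 ± 0.23) followed with olanzapine. Cry2 (0.54 ± 0.27), Clock (0.71 ± 0.38), Rora (0.46 ± 0.26) and Bhlhe41 (0.54 ± 0.38) had the smallest p with haloperidol. Rorb had the highest level of the list in astrocytes, at 582 CPM. The hour at which each mouse was killed is not in the labels.

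The sequences below show where the letters of these elements were found before 3 tested clock genes, taken from RefSeq promoters of build GRCm38.p6. Capitals mark the E-box CACGTG or the D-box TTATGTAA, searched on both strands within 250 bases before the start.
Bhlhe41 E-box: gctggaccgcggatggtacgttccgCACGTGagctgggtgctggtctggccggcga
Tef E-box, first promoter: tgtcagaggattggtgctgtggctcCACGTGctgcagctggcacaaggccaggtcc
Tef E-box, second promoter: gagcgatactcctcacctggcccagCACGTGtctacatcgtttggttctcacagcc
Per3 D-box, farther: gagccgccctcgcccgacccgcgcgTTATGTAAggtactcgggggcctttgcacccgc
Per3 D-box, nearer: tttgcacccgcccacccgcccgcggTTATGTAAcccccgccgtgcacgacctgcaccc
The Bhlhe41 stretch is chr6:145865543-145865598 (minus strand, E-box 148 to 153 bases before the start), and the Tef stretches are chr15:81802521-81802576 and chr15:81811251-81811306 (plus strand, 122 to 127 and 133 to 138 bases before the start of each promoter's transcript). The Per3 stretches are chr4:151044838-151044895 and chr4:151044791-151044848 (minus strand, D-boxes 198 to 205 and 151 to 158 bases before). Of 17 clock genes with a promoter in that set, 5 (Bhlhe41, Ciart, Cry1, Per1 and Tef) held the E-box, compared with 6.86% of all 27025 genes, and 1 held the D-box, compared with 0.977%. These matches describe the letters only.

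The 6 astrocyte markers all had negative log2 fold changes in both comparisons with placebo. They ranged from -0.26 (Slc7a10) to -0.04 (Gja1) with haloperidol and from -0.26 (Aldoc) to -0.06 (Ntsr2) with olanzapine, and none had an unadjusted p under 0.05. Glutamate and GABA uptake genes were divided, 9 of 14 positive with haloperidol (Slc1a2 0.24 ± 0.20, Slc25a18 -0.69 ± 0.33) and 7 of 14 with olanzapine (the glutamate dehydrogenase gene Glud1 0.46 ± 0.23, the glycine transporter Slc6a9 -0.63 ± 0.30). Potassium, water and junction genes were positive in 8 of 15 with each drug, and 0 of the 15 had an unadjusted p under 0.05 with either. Receptor genes were positive in 10 of 15 and 11 of 15, with the growth factor receptor Fgfr2 at 0.63 ± 0.34 and 0.72 ± 0.31. Sterol synthesis genes had medians of 0.06 and -0.01 over 21 tested genes. Among them Insig1, a brake on sterol synthesis, was at -0.39 ± 0.25 with haloperidol and -0.57 ± 0.25 with olanzapine, Fdft1 at -0.50 ± 0.25 with haloperidol and Nsdhl at 0.76 ± 0.36 with olanzapine. Of reactive genes, Vim was at 0.66 ± 0.49 with haloperidol and 0.02 with olanzapine. Haloperidol 4 had 108 CPM of Vim, and the next haloperidol mouse 33.2 CPM. Vim did not pass the filter on low counts without haloperidol 4, and neither Vim nor Gfap did without sub-cluster 4. Gfap was at 0.04 with haloperidol and -1.29 ± 0.71 with olanzapine, and the latter was -0.71 without olanzapine 3 and -0.12 with at most 100 astrocytes per mouse. Olanzapine 2 had the highest Gfap of all mice, at 133 CPM, over only 16 astrocytes.

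Of 12 mitochondrially encoded genes, 11 were positive with haloperidol (median 0.15) and 10 with olanzapine (median 0.19). Among them mt-Co1, a subunit of cytochrome oxidase, stood at 0.26 ± 0.21 and 0.53 ± 0.21. Its level was 15676, 9358, 7351, 7388 and 7539 CPM with olanzapine and 5244, 5936, 6828, 6950 and 7410 CPM with placebo, highest in olanzapine 1, whose astrocytes had the highest mitochondrial share. Of 76 nuclear genes of oxidative phosphorylation, 13 were positive with haloperidol (median -0.13) and 12 with olanzapine (median -0.12), with Ndufa5 at -0.55 ± 0.23 with olanzapine. Without placebo 5 the positive genes were 27 and 29 of 76, with a median of -0.04 for each drug. Ribosomal protein genes were positive in 26 of 79 with haloperidol and 9 of 79 with olanzapine, and in 56 and 44 without placebo 5. That mouse had the highest summed ribosomal protein level (42923 CPM) and the highest metallothionein and redox level (40016 CPM) of all 15. Metallothionein and redox genes were positive in 4 of 20 and 3 of 20, with Mt2 at -0.35 ± 0.22 with olanzapine, and in 9 of 21 and 7 of 21 without placebo 5. Glycolysis genes (2 of 16 positive with haloperidol, median -0.25, Pgk1 -0.48 ± 0.25, Ldha -0.47 ± 0.25) and proteasome genes (5 of 33, median -0.17, Psmc2 -0.75 ± 0.30, Psmd1 -0.91 ± 0.39) were mostly negative with haloperidol, with medians of -0.30 and -0.14 without placebo 5. With olanzapine 6 of 16 and 14 of 33 were positive, with the pyruvate kinase gene Pkm at -0.34 ± 0.24 and Aldoa at -0.28 ± 0.23.

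**Figure D5:**
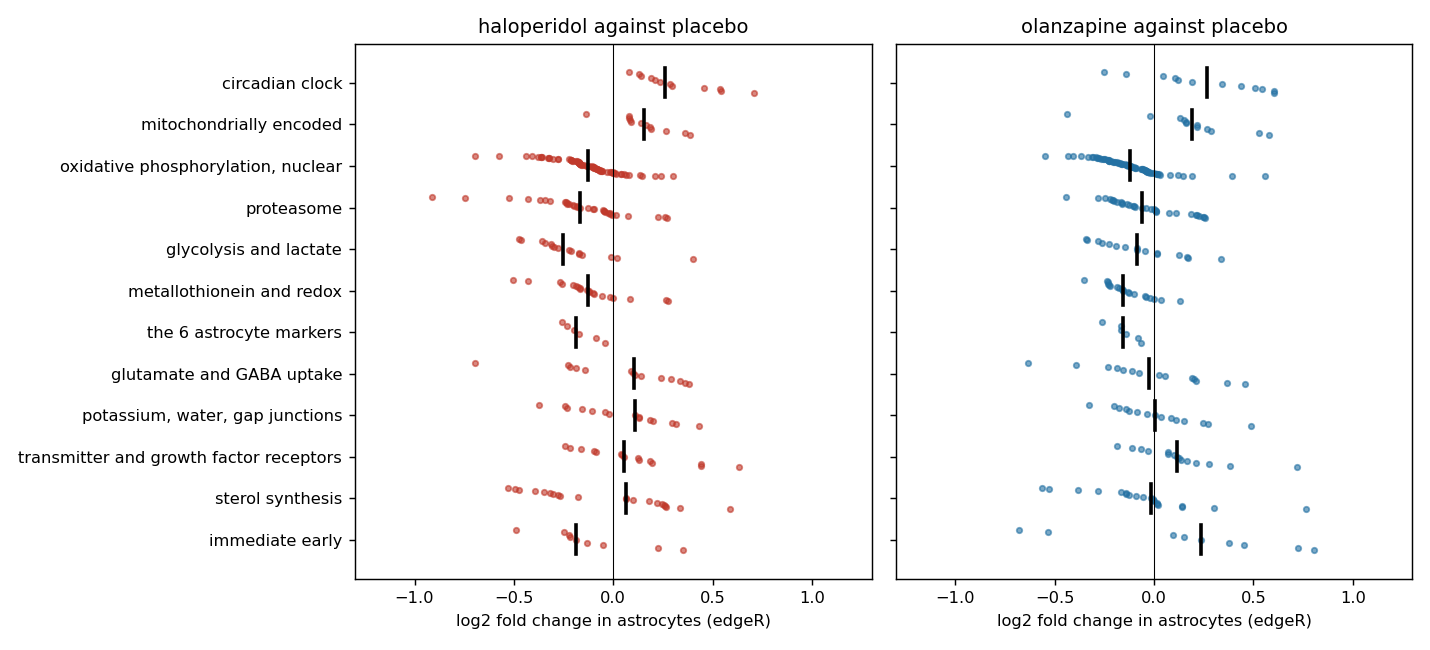
Log2 fold change in astrocytes of each tested member (points) of 12 gene lists and their median (bar), for haloperidol against placebo and olanzapine against placebo, which share the placebo mice. The clock and mitochondrially encoded lists lie mostly above 0 and the nuclear oxidative phosphorylation and astrocyte marker lists mostly below, the members shown range from -0.91 to 0.80, and no gene passed the adjusted test.

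Of 5 genes of astrocytes outside the telencephalon, 0 were positive with olanzapine (median -0.44), 1 had an unadjusted p under 0.05 and none passed the adjusted test. Their summed level was 774 ± 266 CPM with olanzapine and 796 ± 183 CPM with placebo (SD, n = 5 each). The values with olanzapine included Slc6a9 (-0.63 ± 0.30), Agt (-0.65 ± 0.34) and Itih3 (-0.44 ± 0.29). With haloperidol 1 of 5 was positive, and Itih3 stood at -0.49 ± 0.29. Placebo 4 had 176 CPM of Agt against 37.7 to 73.7 CPM in the other placebo mice, and without it the median was -0.09 with olanzapine and 0.05 with haloperidol and the fold of Agt with haloperidol moved from -0.50 to 0.05. Immediate early genes were positive in 2 of 9 with haloperidol (Dusp6 0.35 ± 0.35) and 7 of 9 with olanzapine (Junb 0.80 ± 0.54, Dusp1 0.37 ± 0.28). Their summed level in the olanzapine mice ran from 243 CPM in olanzapine 2 to 2377 CPM in olanzapine 1, beyond the lowest and highest mice of both other groups. Junb was at -0.94 ± 0.57 in haloperidol against olanzapine. Without olanzapine 5 it was -0.45 there and 0.31 for olanzapine against placebo.

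Whether a drug moved a gene in astrocytes differently from the other cells of the same mice was tested over 8491 genes, with mouse as a block. No gene passed for haloperidol (0%, edgeR adjusted p at least 0.438) or olanzapine (0%, edgeR adjusted p at least 0.546, Paip2b). At an unadjusted p under 0.05 there were 422 genes (4.97%) and 388 (4.57%). Without olanzapine 3, the deepest library and the one with the hemoglobin cell, 3 genes passed for olanzapine, all with a lower difference in astrocytes: Id4 (-1.70), Slc4a4 (-1.41) and Paip2b (-2.10). With all mice these were at -1.20, -0.999 and -1.71.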

How the data were processed

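The deposited table holds UMI counts of 15932 genes in 5581 cells with a class, a mouse and a drug line for each cell. The authors made the counts with Cell Ranger against mm10 and used Seurat, per the submitters' processing notes. Their versions are not given in the sources at hand. The class column was taken as deposited. Every astrocyte was kept, and Scrublet, run through scanpy 1.11.5, was an alternative filter (81 doublets, 6 of them astrocytes). Astrocyte counts were summed per mouse (31131 to 1060275 UMIs), and genes passing edgeR's filterByExpr were scaled by TMM and tested with edgeR 4.0.16 (robust quasi-likelihood, R 4.3.3) on all 3 groups, with Benjamini-Hochberg adjustment. DESeq2 1.42.0 was an alternative. The replicates are separate mice. Differences between astrocytes and other cells used a model with mouse as a block. Shares, depth and mitochondrial share were compared over mice by exact two-sided permutation. Sub-clusters came from Leiden clustering at resolution 0.5. Genes named were all called genes or, where fewer than 10 were called, the 10 with the smallest p, up to 4 members of each described list, the 6 markers, and ranked genes by enrichment, level and spread. The members and lists were chosen with earlier results of these data known. Alternatives were other scaling, filters on genes and cells, each mouse left out, the 4 mice numbered 1 to 4 left out, another reference class and, chosen after seeing the data, the shared-barcode cells or sub-cluster 4 left out. Scripts were tested on simulated data. Gene positions are from GENCODE and promoters from RefSeq, both GRCm38. Results on some genes are not reported here.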

Additional observations from a re-analysis of the deposited data

Results flagged for a closer look

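Within each group of 5 mice, values were looked at for a mouse that stands far from the other 4, over 243 groups of values. 29 values did, and chance gives about 1 in 20. The mitochondrial share of astrocytes was 7.64% in olanzapine 1, and hemoglobin summed to 9747 CPM in olanzapine 3 and 10.3 CPM in haloperidol 2. The value of haloperidol 2 is 1 UMI, flagged only because the other haloperidol mice had 0. In haloperidol 1 Htra1 at 4007 CPM stood apart from the other mice of its group. In haloperidol 2 2410002F23Rik at 0 CPM and Glud1 at 452 CPM stood apart. In haloperidol 4 Vim at 108 CPM stood apart. In haloperidol 5 Tef at 212 CPM stood apart. In olanzapine 1 Agt at 128 CPM, Aldoa at 225 CPM, Clock at 96.4 CPM, Cry2 at 128 CPM, P3h3 at 64.2 CPM and mt-Co1 at 15676 CPM stood apart. In olanzapine 2 Azin1 at 133 CPM, Gfap at 133 CPM, Glud1 at 487 CPM, Psmd1 at 66.4 CPM and Slc25a18 at 133 CPM stood apart. In olanzapine 4 Insig1 at 238 CPM stood apart. In placebo 1 9530068E07Rik at 44.2 CPM stood apart. In placebo 2 Cry2 at 33.7 CPM and Dusp1 at 27.0 CPM stood apart. In placebo 3 Angptl4 at 89.5 CPM, P3h3 at 84.8 CPM and Zfc3h1 at 37.7 CPM stood apart. In placebo 4 Agt at 176 CPM stood apart. In placebo 5 Atp5k at 767 CPM and Ldha at 97.1 CPM stood apart. Olanzapine 1 and olanzapine 2 are the libraries with the fewest astrocyte UMIs, where a single UMI is worth 32.1 and 22.1 CPM. The part of depth in these values was not tested.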

How the results depend on the processing

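No paired analysis was possible because the labels number the mice 1 to 15 across the groups, so the groups share no numbers. The counts of called genes, 0 with all mice, were 1 without the 4 mice numbered 1 to 4 for haloperidol against placebo (Igfbp2, -2.33) and for both drugs against placebo (Igfbp2, -1.56), and 1 for haloperidol against olanzapine with no filter on low counts (Cdkn1a, 2.32). For the difference between astrocytes and other cells they were 1 for haloperidol with a mean of 10 CPM required (Ecel1, -6.72), 1 with microglia as the reference, and 4 for olanzapine with microglia (Hbb-bs, Slc1a2, Clu and Meg3), and from 0 to 3 for olanzapine with 1 mouse left out. The microglia setting kept only mice with at least 10 microglia, namely 3 haloperidol, 5 olanzapine and 5 placebo mice. For olanzapine, Hbb-bs was at 5.34, Slc1a2 at -3.59, Clu at -2.72 and Meg3 at -1.80 in that setting. Against all other cells they were at 1.05, 0.25, -0.15 and -1.05. The part of the single hemoglobin cell of olanzapine 3 in the Hbb-bs value was not tested. The share of astrocytes with olanzapine against placebo was 1.50 points and with haloperidol against olanzapine -0.823 points without the 4 mice, and with haloperidol against placebo -1.03 points without the shared-barcode cells. With 1 mouse left out, the share differences ran from -1.44 to 1.50 (haloperidol against placebo), -6.75 to -1.61 (olanzapine against placebo) and 1.67 to 6.81 points (haloperidol against olanzapine). UMIs per astrocyte ran from -161 to 171, -46.3 to 232 and -227 to 106 in the same order, and were -32.4 for olanzapine against placebo without the shared-barcode cells. Without the 4 mice they were -345, 172.5 and -517, and haloperidol against placebo was -107 without the shared-barcode cells. The mitochondrial share of haloperidol against olanzapine was 0.389 points without the 4 mice and ran from -0.958 to 0.067 with 1 mouse left out. Agt with haloperidol was 0.0487 without placebo 4 and ran from -0.72 to 0.0487. The cause of each of these moves was not tested. Leaving out the shared-barcode cells moved the log2 fold change by at most 0.19 (Rps27rt with olanzapine, -1.07) in the 74 of 82 named values that were tested there, and 8 fell below the filter. With 1 mouse left out, 26 of the 82 moved by over 1.5 times or in sign in at least 1 case, and the smallest adjusted edgeR p of a named gene in any alternative was 0.0966 (Rps27rt, both drugs). Depth limits olanzapine 1 and 2 most.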
